A study of Mus musculus with 18 samples.

Results

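The response of synovial fibroblasts to osteopontin (OPN) was compared between cells from arthritic and cells from naive mice, as the OPN effect in arthritic cells minus the OPN effect in naive cells on the log2 scale. This difference rests on 12 of the 18 RNA libraries of the series, in 4 groups of 3: arthritic cells with OPN, arthritic cells without it, naive cells with OPN and naive cells without it (STIA_OPN, STIA, naive_OPN and naive). All mice are labelled wild type; their age and sex are not stated. Arthritis was the serum-transfer-induced form (STIA), in which injected K/BxN serum carries antibodies that inflame the joints. Fibroblasts were sorted from the paws, OPN was given in culture at 50 ng/mL for 3 days, and how long the unstimulated controls were cultured, or how long after serum transfer cells were sorted, is not stated. The labels do not say whether the 3 libraries of a group came from separate mice or cultures, so the p-values measure the spread among these libraries, which may be technical. They give no date or batch either, so OPN and the handling of its cultures cannot be told apart, nor can arthritis and the handling of its mice.

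Osteopontin, the product of Spp1, is a secreted phosphoprotein of bone matrix and of inflamed tissue, made by macrophages among other cells. It binds RGD-recognising integrins such as αvβ3, αvβ1, αvβ5 and α8β1 and, in other forms, CD44, and it signals through focal adhesion and MAP kinases to adhesion, migration and cytokine genes. Synovial fibroblasts line the joint, make lubricin and hyaluronan, and in arthritis release chemokines, cytokines and proteases. The comparison addresses whether fibroblasts that have been through joint inflammation answer OPN as fibroblasts from an uninflamed joint do.

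Library totals ran from 27678577 to 40357342 counts, and 18067 to 19131 genes had a count in each library. A count of 0 allows a level of up to 0.0743 to 0.108 counts per 1000000 (CPM), depending on the library, for counting error alone. Fibroblast genes were high in all 12 libraries, with Col1a1 at 24033 to 39496, Vim at 4703 to 5862 and Pdgfrb at 747 to 890 CPM. The macrophage genes Adgre1 and Itgam stayed at or below 0.0684 and 0.0685 CPM, and C1qb, the T cell gene Cd3e and the neutrophil gene S100a9 were at 0 throughout. Other genes listed for macrophages had counts in every library. Lyz2 was at 2.53 to 11.6, Cd14 at 2.76 to 7.01, Csf1r at 1.92 to 3.46 and Cd68 at 0.992 to 2.6 CPM. The first 2 principal components held 43.8% and 20.3% of the variance. On the first, OPN libraries lay to the same, higher side of their controls in both sources. STIA libraries were at -20.18 to -18.95 with OPN and -34.25 to -30.39 without. Naive libraries were at 31.66 to 45.28 with OPN and 13.7 to 15.94 without. On the second, OPN libraries lay to opposite sides of their controls. STIA libraries were at -6.041 to -1.028 with OPN and 7.969 to 14.48 without, naive libraries at 14.48 to 28.78 with OPN and -29.31 to -27.47 without. The naive libraries with OPN were the most spread, with replicates 2 and 3 the least alike of the 12 replicate pairs (chi-square per degree of freedom 22.8, against 5.66 in the closest pair).

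**Figure D1:**
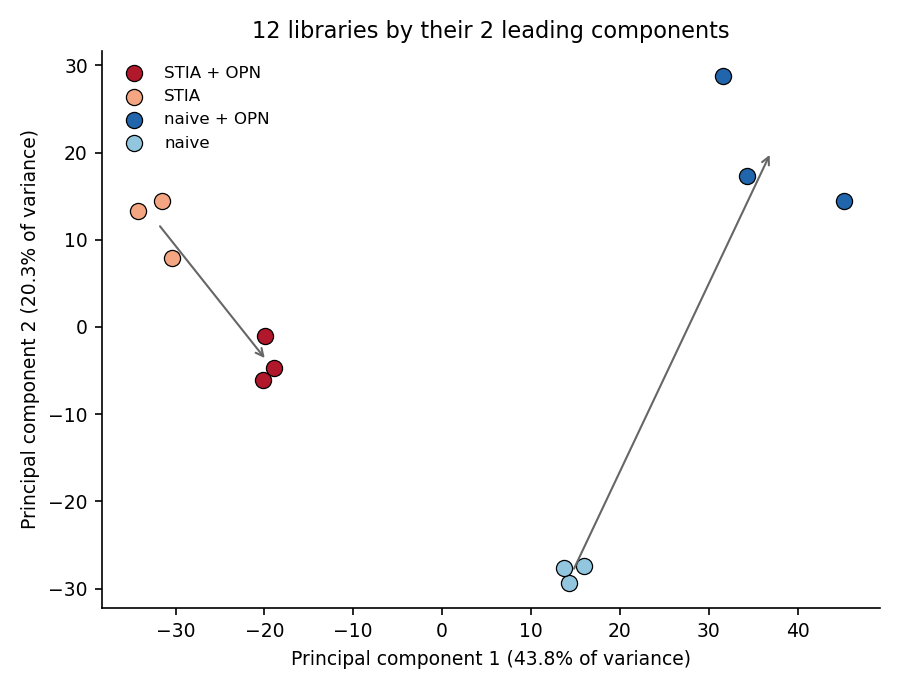
Each point is 1 library of log2 CPM over the genes tested, placed by principal component 1 (43.8% of variance, horizontal) and 2 (20.3%, vertical), and arrows run between group means towards the libraries with OPN. OPN libraries lie to the right of their controls in both sources on component 1. On component 2 they lie below their controls among STIA cells and above them among naive cells.

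The OPN effect differed between the 2 sources of cells for 4093 of 14530 genes tested (28.2%; edgeR quasi-likelihood test, Benjamini-Hochberg adjusted p below 0.05, which is what called means from here on). The difference was positive for 2036 genes (14.0%) and negative for 2057 (14.2%), and 351 and 419 of these reached 2-fold. In STIA cells OPN changed 789 genes (5.43%; 360 or 2.48% rose and 429 or 2.95% fell), and in naive cells it changed 5512 (37.9%; 2727 or 18.8% rose and 2785 or 19.2% fell). The median absolute log2 effect over all genes tested was 0.104 in STIA cells and 0.206 in naive cells. The count in STIA cells was the less stable: it fell to 255 without STIA replicate 1, 256 without STIA_OPN replicate 2, 352 without STIA replicate 2, 457 without STIA_OPN replicate 1 and 487 without STIA_OPN replicate 3, and to 327 when all 18 libraries shared 1 estimate of spread, while the count for the difference stayed between 3364 and 4282 in every alternative.

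Of the 4093 genes, 3079 (75.2%) were called for OPN in naive cells and not in STIA cells, 1590 of them with a positive and 1489 with a negative difference. In 385 genes (9.41%) OPN was called in both sources with opposite signs, 172 up in STIA and down in naive cells and 213 the other way. A further 194 were called in STIA cells alone, 13 went the same way in both with a smaller effect in STIA cells, 2 went the same way with a larger one, and 420 were called in neither. Of the 500 genes called in both sources, 115 had the same sign. Across the 14530 genes the 2 effects, which share no library, had a Pearson r of -0.18, a description over genes that are not independent. The 385 opposed genes numbered 160 in the fit of all 18 libraries, 152 of them in common, and, when each library in turn was left out, 136 without STIA replicate 1 or STIA_OPN replicate 2, 171 without STIA replicate 2, 218 without STIA_OPN replicate 1, 248 without STIA_OPN replicate 3 and up to 563 without naive_OPN replicate 3.

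**Figure D2:**
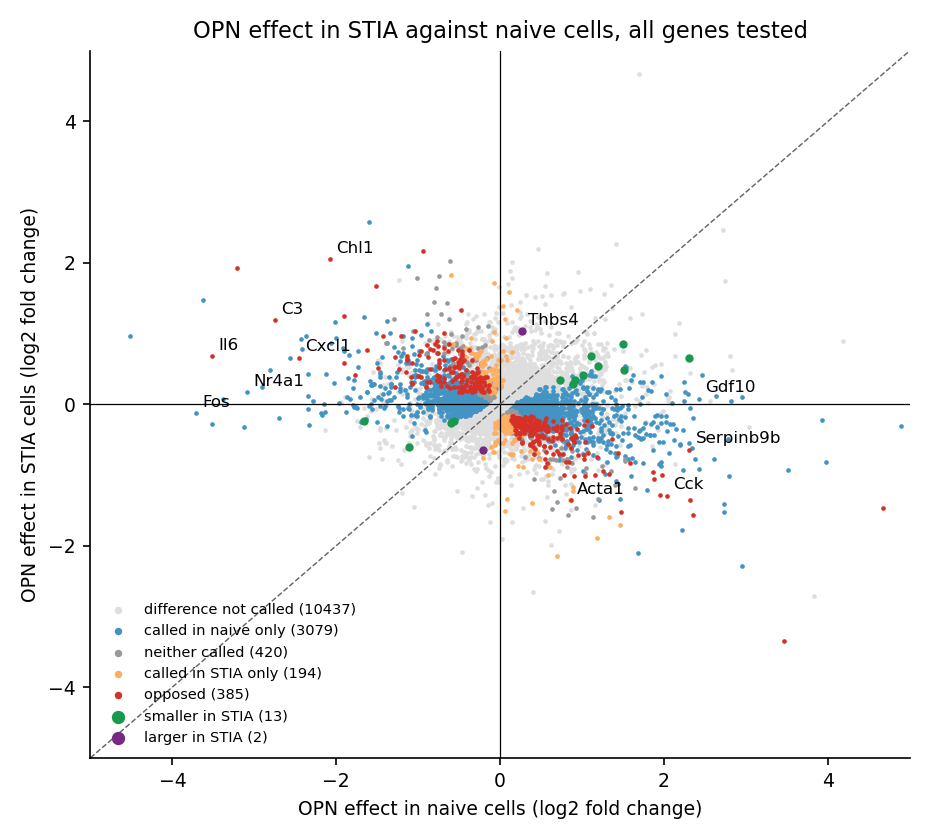
Each point is 1 of the 14530 genes tested, with the OPN effect in naive cells on the horizontal axis and in STIA cells on the vertical axis, both as log2 fold change; colours give the class of the gene and the dashed line marks equal effects. The 385 opposed genes lie to the upper left and lower right, and genes called in naive cells only, such as Fos and Nr4a1, spread along the horizontal axis.

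Immediate early genes, the first to be transcribed when a cell is stimulated, gave a uniform pattern: most fell with OPN in naive cells, and few were called in STIA cells. Of 25 tested, 20 had a called positive difference and 1 a negative one (14.0% and 14.2% of all genes), with a median difference of 0.89, against -0.01 over all genes. In naive cells 21 fell and 1 rose (19.2% and 18.8% of all genes). In STIA cells 1 rose and 2 fell (2.48% and 2.95% of all genes). Fos, the AP-1 subunit, had 248, 273 and 224 CPM in STIA cells with OPN and 269, 262 and 278 CPM in STIA cells without, against 25.3, 23 and 22.1 CPM in naive cells with OPN and 319, 297 and 308 CPM in naive cells without. The naive libraries with OPN were thus alone, far below the other 9. The Fos difference was 3.59 ± 0.09 (log2 ± SE, adjusted p = 2.58e-17), made of an effect of -0.12 ± 0.06 (adjusted p = 0.315) in STIA cells and -3.71 ± 0.07 in naive cells. Nr4a1, an orphan nuclear receptor, had 86.9, 97.8 and 85.2 CPM in STIA cells with OPN and 87.5, 70.8 and 81.8 without, against 10.3, 10.9 and 11.3 in naive cells with OPN and 91.7, 95.3 and 89.2 without. Its difference was 3.26 ± 0.10 (adjusted p = 1.59e-15), and the same 3 libraries stood apart. Fosb, another AP-1 subunit, had a difference of 3.24 ± 0.30 (adjusted p = 7.9e-05) and averaged 158 and 192 CPM in STIA cells with and without OPN, and 12.6 and 145 CPM in naive cells with and without OPN.

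Egr1, a zinc-finger factor induced by ERK signalling, had 387, 391 and 372 CPM in STIA cells with OPN and 371, 354 and 386 without, and 85.4, 84.1 and 77.5 CPM in naive cells with OPN and 416, 392 and 391 without. Only the naive libraries with OPN lay apart, and the difference was 2.33 ± 0.08 (adjusted p = 1.04e-15). Further down the list the difference was 1.79 for Ier2, 1.72 for Zfp36, which promotes decay of cytokine mRNAs, 1.44 for Egr2, 1.22 for Junb, 0.94 for Jun and 0.50 for Myc. Maff, a small Maf factor, was the exception with a negative difference, -0.63 ± 0.11 (adjusted p = 0.000205), and effects of -0.30 in STIA cells, kept in 13 of 20 alternatives, and 0.33 in naive cells. Without STIA_OPN replicate 3 the negative calls numbered 2. Fosl1, Klf6, Nr4a3 and Srf had no called difference. The STIA minus naive gap of these 25 genes had a median of 0.95 with OPN, where 23 were higher in STIA cells (23.2% of all genes were higher and 22.2% lower), and of -0.01 without OPN, where 8 were higher and 8 lower (21.9% and 20.5% of all genes).

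Promoters of 4 of these early genes are shown because the genes moved together in naive cells, 3 from this list and Dusp1, the phosphatase that switches off MAP kinases, from the ERK list. Each line is the 250 bases before the start of the gene, 5′ to 3′ on the strand of the gene (RefSeq, GRCm38.p6). They are chr12:85473640-85473889 (Fos, plus strand), chr7:19310046-19310295 (Fosb, minus), chr15:101266596-101266845 (Nr4a1, plus) and chr17:26508473-26508722 (Dusp1, minus). Capitals mark the cAMP response element (CRE) half-site TGACG or, on the opposite strand, CGTCA.
Fos: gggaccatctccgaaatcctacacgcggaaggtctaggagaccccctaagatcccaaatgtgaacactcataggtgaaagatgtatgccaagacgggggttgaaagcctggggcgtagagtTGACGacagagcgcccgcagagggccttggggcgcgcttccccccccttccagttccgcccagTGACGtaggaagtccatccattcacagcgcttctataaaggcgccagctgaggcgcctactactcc
Fosb: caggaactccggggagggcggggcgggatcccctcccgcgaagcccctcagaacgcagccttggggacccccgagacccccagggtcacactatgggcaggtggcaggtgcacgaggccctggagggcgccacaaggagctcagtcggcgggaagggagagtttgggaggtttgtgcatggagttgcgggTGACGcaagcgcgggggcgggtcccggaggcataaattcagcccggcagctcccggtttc
Nr4a1: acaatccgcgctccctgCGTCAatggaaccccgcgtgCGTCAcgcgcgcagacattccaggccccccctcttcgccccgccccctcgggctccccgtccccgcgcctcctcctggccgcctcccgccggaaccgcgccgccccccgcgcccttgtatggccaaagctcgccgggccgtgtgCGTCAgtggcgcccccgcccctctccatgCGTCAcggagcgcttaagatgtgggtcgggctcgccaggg
Dusp1: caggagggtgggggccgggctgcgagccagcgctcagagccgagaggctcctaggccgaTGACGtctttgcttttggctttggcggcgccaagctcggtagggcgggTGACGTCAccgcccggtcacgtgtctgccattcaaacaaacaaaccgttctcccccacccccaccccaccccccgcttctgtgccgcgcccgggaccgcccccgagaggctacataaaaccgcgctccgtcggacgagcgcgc
The Fos window holds 2 half-sites, the nearer 66 bases before the start, the Fosb window 1 at 60 bases, the Nr4a1 window 4, all on the opposite strand, and the Dusp1 window 3, where 2 of them overlap in the full palindrome TGACGTCA. A half-site lay in 17.8% of all 32851 mouse promoter windows of this length, in at least 1 window of 3325 of 11034 tested genes with a promoter in the table (30.1%), and of 13 of the 20 immediate early genes with one. These letters are a description of the windows and say nothing of what bound them.

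**Figure D3:**
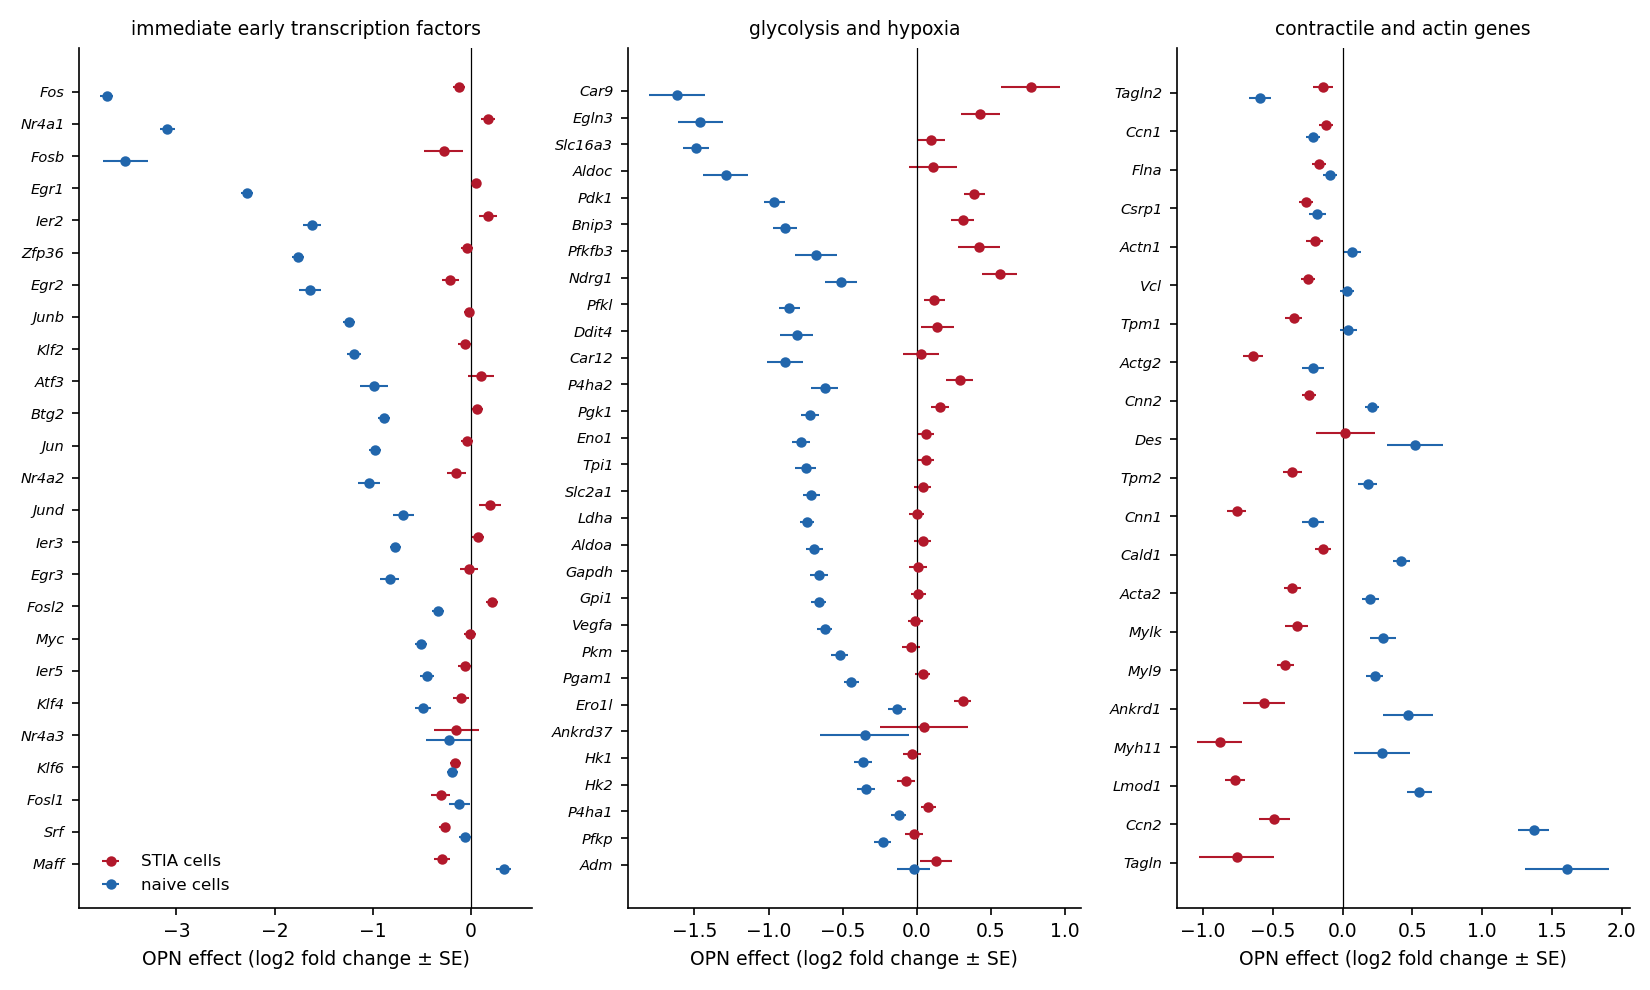
OPN effects (log2 fold change ± SE from the edgeR fit, horizontal axis) of every tested member of 3 gene lists, in STIA cells (red) and naive cells (blue), ordered by the difference between them. Naive values lie well left of 0 for most immediate early and glycolysis genes while STIA values lie near 0; for contractile genes STIA values lie left of 0, except that of Des, and most naive values right of it.

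Dusp1 itself was lower with OPN in both sources, by 0.24 ± 0.06 in STIA cells (adjusted p = 0.0255, kept in 13 of 20 alternatives) and 1.66 ± 0.06 in naive cells, and its difference was 1.42 ± 0.09 (adjusted p = 1.96e-10). Other targets and brakes of ERK signalling split. Of 21, 7 had a positive and 9 a negative difference (14.0% and 14.2% of all genes). Dusp4, a nuclear ERK phosphatase, had 14.9, 15.3 and 16.9 CPM in STIA cells with OPN and 29.5, 25.9 and 26.9 without, and 10.7, 12.9 and 7.14 CPM in naive cells with OPN and 5.36, 5.48 and 6.49 without. Neither pair of groups overlapped, and the signs were opposed: -0.81 ± 0.14 in STIA cells and 0.84 ± 0.17 in naive cells. Cyclin D1, Ccnd1, had a difference of -1.38 ± 0.22 (adjusted p = 0.00146) and averaged 173 and 224 CPM in STIA cells with and without OPN, and 270 and 135 CPM in naive cells with and without OPN. Spry4, a feedback inhibitor of receptor tyrosine kinase signalling, had -0.91, its relative Spry1 0.58.

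Genes of glycolysis and the hypoxia response were the second group to separate. Of 30, 27 had a positive difference (14.0% of all genes), with a median of 0.78. In naive cells 26 fell and in STIA cells 5 rose (19.2% and 2.48% of all genes). The rises in STIA cells numbered 2 to 8 when each library was left out, the fewest without STIA replicate 1. The drop in naive cells reached from glucose uptake to lactate export: Slc2a1, the glucose transporter, changed by -0.71, Gapdh by -0.66, Ldha by -0.74 and Slc16a3, the lactate exporter, by -1.49 on the log2 scale. Slc16a3 had 256, 240 and 236 CPM in STIA cells with OPN and 205, 221 and 256 without, groups that overlap, against 79.2, 67.2 and 88.5 CPM in naive cells with OPN and 207, 224 and 229 without. Its difference was 1.59 ± 0.13 (adjusted p = 6e-07).

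In 4 of the 30 genes the effects were opposed, rising in STIA cells and falling in naive cells, against 172 of the 14530 genes tested. Car9, a carbonic anhydrase induced by hypoxia, had 9.71, 10.1 and 7.81 CPM in STIA cells with OPN and 5.32, 4.53 and 6.35 without, and 5.16, 4.38 and 8.06 CPM in naive cells with OPN and 16.4, 20.6 and 16.3 without. Its effect was 0.77 ± 0.20 in STIA cells, kept in 12 of 20 alternatives, and -1.62 ± 0.19 in naive cells. Pdk1, which keeps pyruvate out of the citric acid cycle, had 84.1, 81.6 and 80.5 CPM in STIA cells with OPN and 58.9, 60.3 and 68.8 without, and 47.9, 45.8 and 55.9 CPM in naive cells with OPN and 96.9, 95.7 and 97.8 without. The rise in STIA cells (0.39 ± 0.07, adjusted p = 0.00152) held in all 20 alternatives. Bnip3, a mitophagy receptor, and Ndrg1, a stress-induced gene, were the others, at 0.31 and 0.56 in STIA cells, each kept in 16 of 20 alternatives, and -0.89 and -0.51 in naive cells. The oxygen sensor Egln3 had a difference of 1.89 ± 0.20 (adjusted p = 2.75e-07), with a call in naive cells alone. With OPN 24 of the 30 genes were higher in STIA than in naive cells and 0 lower (23.2% and 22.2% of all genes). Without OPN 4 were higher and 13 lower (21.9% and 20.5% of all genes).

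Among inflammatory genes several were opposed, higher with OPN in STIA cells and lower with it in naive cells. Of 15 complement and acute-phase genes, 9 had a positive difference (14.0% of all genes), with a median of 0.99. In naive cells 8 fell and in STIA cells 5 rose (19.2% and 2.48% of all genes). The count of rises in STIA cells was 0 by edgeR without STIA replicate 1 and 9 without naive_OPN replicate 3. C3, the central complement component, had 13.9, 13.1 and 11.7 CPM in STIA cells with OPN and 4.6, 4.64 and 7.85 without, and 4.86, 3.5 and 7.63 CPM in naive cells with OPN and 33.2, 39.3 and 33.4 without. It was thus highest in unstimulated naive cells and, under OPN, higher in STIA than in naive cells. The difference was 3.94 ± 0.37 (adjusted p = 4.33e-05); the effect in naive cells was -2.75 ± 0.26, and the rise in STIA cells, 1.19 ± 0.27, was kept in 9 of 20 alternatives. Haptoglobin, Hp, had 3.86, 3.94 and 2.85 CPM in STIA cells with OPN and 2.28, 2.51 and 2.9 without, against 1.62, 1.08 and 1.55 in naive cells with OPN and 9.12, 10.9 and 9.86 without, a difference of 3.29 ± 0.24 (adjusted p = 2.73e-09). Steap4, a metalloreductase induced by cytokines, rose by 1.25 ± 0.29 in STIA cells and changed by -1.90 ± 0.20 in naive cells. Lcn2, which encodes the iron-binding lipocalin 2 and was picked out after its values were seen, averaged 0.838 and 0.226 CPM in STIA cells with and without OPN and 0.266 and 2.34 CPM in naive cells with and without OPN, a difference of 5.14 ± 0.69 on few counts.

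Among 16 chemokines and their decoy receptors 8 had a positive and 2 a negative difference (14.0% and 14.2% of all genes), with a median of 0.78. Cxcl1, which draws neutrophils, had 31.7, 45 and 41.5 CPM in STIA cells with OPN and 23.1, 24.7 and 27.4 without, and 8.25, 7.46 and 9.37 CPM in naive cells with OPN and 47, 39.3 and 50.4 without. Neither pair of groups overlapped, and the effects had opposite signs: 0.66 ± 0.13 in STIA cells (adjusted p = 0.00913, kept in 19 of 20 alternatives) and -2.45 ± 0.14 in naive cells. The related Cxcl5 had 107, 137 and 120 CPM in STIA cells with OPN and 51.4, 58.8 and 80.3 without, and 35.6, 25.3 and 53.2 CPM in naive cells with OPN and 161, 144 and 148 without. Here the effect in STIA cells was not called (0.94 ± 0.26, adjusted p = 0.0829), and the difference was 2.94 ± 0.37 (adjusted p = 0.000508). The scavenging receptor Ackr3 was opposed, at 0.50 and -1.23, and the monocyte attractants Ccl2 and Ccl7 each had a difference of 0.78. The 2 negative calls, Cxcl16, a membrane-bound chemokine, at -0.71 and Ccl8 at -1.01, were both lost with all 18 libraries in the fit, and Cxcl16 in 11 of 19 alternatives, among them every fit with 1 library left out other than those without STIA replicate 1, STIA_OPN replicate 2 or naive replicate 1. Ccl7 lost its call in 7 of 20. In STIA cells 4 chemokine genes rose (2.48% of all genes), but 1 without STIA replicate 1.

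Il6, a cytokine of the inflamed joint, had 3.53, 4.1 and 2.56 CPM in STIA cells with OPN and 1.91, 2.37 and 2.13 without, and 0.344, 0.453 and 0.296 CPM in naive cells with OPN and 4.16, 3.86 and 4.69 without. Naive cells with OPN were the low group, below the other 9 libraries, and the difference was 4.19 ± 0.31 (adjusted p = 2.95e-09). The rise in STIA cells, 0.68 ± 0.19, was kept in 11 of 19 alternatives. Of the 19 cytokine genes tested 7 had a positive and 3 a negative difference (14.0% and 14.2% of all genes). The interleukin 1 receptor Il1r1 averaged 75.7 and 44.3 CPM in STIA cells with and without OPN and 59.4 and 108 CPM in naive cells with and without OPN, with effects of 0.78, kept in 17 of 20 alternatives, and -0.86. The receptors Osmr and Il6st were opposed too, at 0.34 and -0.40, and 0.42 and -0.50. Of 16 genes of NF-κB feedback and adhesion, 9 had a positive and 1 a negative difference. Bcl3, a nuclear IκB protein, had 23.5, 26.4 and 22.5 CPM in STIA cells with OPN and 15.3, 14.9 and 17.9 without, and 9.6, 8.04 and 11.8 CPM in naive cells with OPN and 32.5, 38.8 and 37.4 without. It was opposed (0.59 ± 0.11 and -1.90 ± 0.11), while Nfkbiz, another IκB protein, and Tnfaip3, which ends NF-κB signalling, fell in naive cells alone, with differences of 1.97 ± 0.15 and 0.94 ± 0.19. The adhesion genes Icam1 and Vcam1 had differences of 0.12 and 0.18 with no call.

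The macrophage genes summed to 14.1 to 14.2 CPM in STIA cells with OPN, 14 to 15.6 CPM in STIA cells, 17.9 to 21.5 CPM in naive cells with OPN and 14.1 to 15.4 CPM in naive cells. Of the 6 tested (14 listed), 2 had a negative difference (14.2% of all genes). Of the list, C1qb, C1qa and Adgre1 were at or near 0, and of the sum in naive cells with OPN 9.8 CPM was Lyz2, against 3.75 CPM without. Cd14 averaged 3.58 and 5.85 CPM in naive cells with and without OPN. In the same order Csf1r averaged 3.07 and 2.84 CPM and Cd68 2.05 and 1.21 CPM. The 8 tested Schwann cell genes gave 5 positive and 1 negative difference (14.0% and 14.2% of all genes), the negative count being near the share of all genes. They summed to 180 to 186, 160 to 173, 119 to 137 and 140 to 153 CPM in the same order of groups, most of it Ncam1. The positive count was 3 without STIA replicate 2. Of the 2 negative macrophage calls, that of Cd68 (-0.99) was lost in 6 of 19 alternatives. Sox10, the defining factor of that lineage, averaged 11.5 and 8.77 CPM in STIA cells with and without OPN and 4.73 and 9.88 CPM in naive cells with and without OPN. The part of these cells in the results was not tested, and in bulk RNA fewer cells of a kind and less RNA per cell cannot be told apart.

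**Figure D4:**
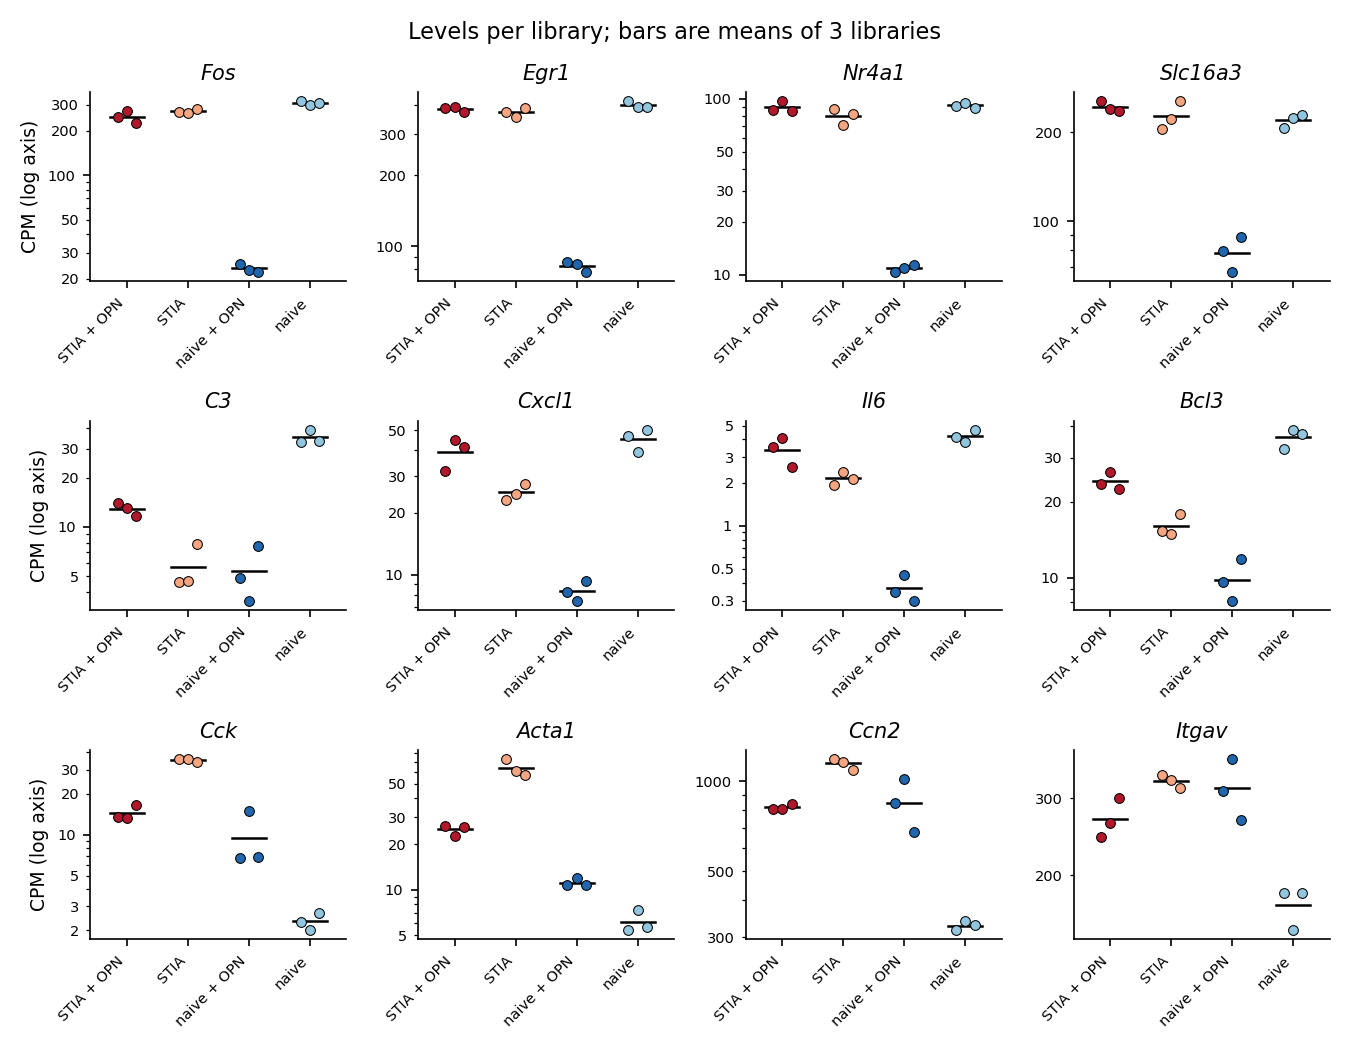
Levels of 12 genes in each library (CPM on TMM-scaled library sizes, log axis) for STIA cells with OPN, STIA cells, naive cells with OPN and naive cells; points are libraries and bars group means. Fos, Egr1, Nr4a1 and Slc16a3 are low in naive cells with OPN alone; C3, Cxcl1, Il6 and Bcl3 are higher with OPN in STIA cells and lower with OPN in naive cells; Cck, Acta1 and Ccn2 are lower with OPN in STIA cells and higher with OPN in naive cells, and Itgav is low in naive cells without OPN alone.

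Contractile and actin-linked genes showed the reverse direction. Of 21, 16 had a negative and 1 a positive difference (14.2% and 14.0% of all genes), with a median of -0.54. In STIA cells 15 fell (2.95% of all genes). In naive cells 11 rose and 4 fell (18.8% and 19.2% of all genes). With all 18 libraries in the fit 8 had a negative difference. In that fit the falls of Ccn2, Acta2, Cnn1 and Actg2 in STIA cells, among others, lost their call (edgeR adjusted p = 0.292, 0.64, 0.294 and 0.229). Those of Acta1 and Lmod1 kept it (0.0349 and 0.0428). Without STIA_OPN replicate 2 the falls in STIA cells numbered 9, and without naive_OPN replicate 1 the rises in naive cells numbered 6. Ccn2, a matricellular target of TGF-β and YAP, had 806, 806 and 842 CPM in STIA cells with OPN and 1193, 1166 and 1094 without, and 846, 1021 and 679 CPM in naive cells with OPN and 317, 340 and 330 without. With OPN the STIA and naive libraries overlapped, and the difference was -1.86 ± 0.15 (adjusted p = 2.88e-06), with -0.49 ± 0.11 in STIA cells, kept in 13 of 20 alternatives, and 1.37 ± 0.11 in naive cells. Smooth-muscle actin, Acta2, a marker of myofibroblasts, had 2187, 2075 and 2120 CPM in STIA cells with OPN and 2673, 2762 and 2760 without, and 1230, 1177 and 1041 CPM in naive cells with OPN and 932, 1078 and 988 without. Its difference was -0.56 ± 0.09 (adjusted p = 4.35e-05).

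Lmod1, an actin nucleator of smooth muscle, was opposed in the same way (-0.77 ± 0.07 and 0.55 ± 0.09), and Tagln, or transgelin, had 4.82, 4.94 and 4.83 CPM in STIA cells with OPN and 6.37, 9.35 and 9.18 without, and 6.09, 10.2 and 5.3 CPM in naive cells with OPN and 1.39, 3.17 and 2.58 without. Its difference of -2.37 ± 0.41 (adjusted p = 0.00104) rests on a call in naive cells alone. Calponin, Cnn1, and enteric smooth-muscle actin, Actg2, fell in STIA cells by 0.76 and 0.64, and had naive effects of -0.21 each. Tagln2 was the positive member, at 0.45. Skeletal actin, Acta1, had 26.3, 22.6 and 26 CPM in STIA cells with OPN and 73.2, 60.8 and 57.3 without, and 10.7, 11.9 and 10.8 CPM in naive cells with OPN and 5.39, 7.37 and 5.68 without, a difference of -2.22 ± 0.16 (adjusted p = 1.17e-08). It made up most of the summed skeletal muscle genes (25.3 to 28.9, 58.5 to 75.9, 15.3 to 19.2 and 8.43 to 10.5 CPM in the 4 groups; 4 of 9 tested, Acta1 alone called), of which Myf5 was at 0 and Ckm at most 0.0961 CPM in every library. Pericyte and smooth-muscle genes summed to 307 to 347, 354 to 420, 224 to 295 and 304 to 319 CPM. Of 8 tested, 2 were positive and 1 negative (14.0% and 14.2% of all genes), the negative count being near the share of all genes. Without naive replicate 3, 2 were negative. Their part in the contractile counts was not tested.

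Several receptor genes for OPN had a called difference, and its own gene did not. Spp1 had 1799, 1713 and 1667 CPM in STIA cells with OPN and 1840, 1893 and 1883 without, and 1480, 1578 and 1336 CPM in naive cells with OPN and 1390, 1429 and 1343 without, a difference of -0.19 ± 0.08 (adjusted p = 0.0743). Of 12 genes of OPN and its receptors, 2 had a positive and 4 a negative difference (the positive call of Itga9 was lost in 8 of 20 alternatives). Of all genes 14.0% and 14.2% did, so the positive count was near the share of all genes. Itgav, the αv chain, had 245, 263 and 300 CPM in STIA cells with OPN and 339, 330 and 316 without, and 311, 369 and 268 CPM in naive cells with OPN and 182, 150 and 182 without. Unstimulated naive cells were the low group, and the other 3 groups lay close together or overlapped. The difference was -1.17 ± 0.16 (adjusted p = 0.00028), with -0.29 ± 0.12 in STIA cells not called (adjusted p = 0.201) and 0.89 ± 0.12 in naive cells called. Itgb1, the β1 chain, and Cd44 likewise rose in naive cells alone, with differences of -0.54 ± 0.07 and -0.69 ± 0.14.

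The α8 chain, Itga8, had 3.36, 3.34 and 3.81 CPM in STIA cells with OPN and 7.39, 6.38 and 4.78 without, and 4.35, 4.13 and 5.16 CPM in naive cells with OPN and 1.54, 1.34 and 1.63 without. It was opposed (-0.83 ± 0.16 and 1.59 ± 0.18), and so, with the signs turned, was Itgb8, a chain that partners αv to activate TGF-β (0.77 ± 0.11 and -0.38 ± 0.10). Itga9 had a difference of 0.33 ± 0.11 (adjusted p = 0.0335, kept in 12 of 20 alternatives). Itgb3, the β3 chain, was lower with OPN by about the same amount in both sources (-0.28 ± 0.07, kept in 13 of 20 alternatives, and -0.25 ± 0.08), and its difference was -0.03 ± 0.11 (adjusted p = 0.877). Itgb5 had -0.15 ± 0.07 (adjusted p = 0.125).

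The 12 largest negative differences (genes with a mean of 5 CPM or more in a group) were Adcyap1r1, Cck, Bc1, Serpinb2, Serpinb9b, Car8, Cilp2, Itga8, Penk, Tagln, Gdf10 and Jam2, and none belongs to the inflammatory groups above. Cck, which encodes the peptide hormone cholecystokinin, had 13.6, 13.3 and 16.4 CPM in STIA cells with OPN and 36.1, 35.8 and 33.8 without, and 6.75, 15 and 6.91 CPM in naive cells with OPN and 2.31, 2 and 2.69 without. STIA cells without OPN were the high group and naive cells without OPN the low one, and the difference was -3.33 ± 0.43 (adjusted p = 0.00048). Cck was opposed, and its fall in STIA cells (-1.29 ± 0.26) was kept in 15 of 20 alternatives. Serpinb9b, an intracellular serine protease inhibitor, had 5.93, 5.54 and 6.28 CPM in STIA cells with OPN and 9.57, 9.53 and 8.48 without, and 13.4, 15.9 and 11.4 CPM in naive cells with OPN and 2.31, 2.72 and 3.2 without. The effects were -0.64 ± 0.13 and 2.31 ± 0.14, so that STIA cells were the higher without OPN and naive cells the higher with it.

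Car8, a carbonic anhydrase-related protein, Jam2, a junctional adhesion molecule, and Serpinb2, the plasminogen activator inhibitor 2, were opposed as well, with differences of -2.94 ± 0.39, -2.31 ± 0.35 and -3.01 ± 0.54, the last -2.39 without naive_OPN replicate 2. The fall in STIA cells behind this was kept in 12 of 20 alternatives for Car8, 9 of 20 for Jam2 and 14 of 19 for Serpinb2, and the rise of Serpinb2 in naive cells in 15 of 19. Adcyap1r1, the receptor for the neuropeptide PACAP, had a difference of -3.38 ± 0.78, but -2.52 without naive_OPN replicate 2, in which it stood at 21.3 CPM beside 6.66 and 5.82. Bc1, a small non-coding RNA, rose to 34.8, 34.5 and 35.6 CPM in naive cells with OPN, against 6.23, 7.65 and 8.53 in naive cells without, and its difference was -3.16 ± 0.59, or -2.48 without STIA replicate 3. Cilp2, a cartilage matrix protein, had 1.57, 1.82 and 1.41 CPM in STIA cells with OPN, 1.99, 1.7 and 1.85 without, 10.6, 13.6 and 11.3 in naive cells with OPN and 2.28, 2.17 and 2.48 without, so that only naive cells with OPN stood apart. Penk, the enkephalin precursor, had 13, 9.45 and 30.9 CPM in naive cells with OPN and at most 3.91 CPM elsewhere. Its difference, -2.37 ± 0.69 (adjusted p = 0.0334), missed the threshold in 10 of 20 alternatives and was -1.72 without naive_OPN replicate 3.

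Of the 12 largest positive differences, 8 stand in the groups already described. The other 4 were Chl1, a neural cell adhesion molecule, Shisal1, Gzmb, a granule protease, and Scara5, a ferritin receptor. Chl1 had 3.5, 2.99 and 2.11 CPM in STIA cells with OPN and 0.457, 0.708 and 0.942 without, and 1.03, 0.831 and 2.86 CPM in naive cells with OPN and 5.76, 6.24 and 7.21 without. It had the largest difference of the 24, 4.13 ± 0.56 (adjusted p = 0.000139), and 4.83 without naive_OPN replicate 3, and its rise in STIA cells was kept in 16 of 20 alternatives. Scara5 had 6.32, 5.35 and 5.35 CPM in STIA cells with OPN, 1.32, 0.85 and 2.23 without, 13.4, 8.54 and 28 in naive cells with OPN and 33.1, 38.7 and 35.1 without, a difference of 3.07 ± 0.69 and 3.66 without naive_OPN replicate 3. Its fall in naive cells (-1.12 ± 0.37, adjusted p = 0.0423) was kept in 9 of 20 alternatives. Shisal1 and Gzmb fell in naive cells alone, with differences of 3.22 ± 0.27 and 3.15 ± 0.34.

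Matrix genes were mixed. Of 40 structural genes 15 had a positive and 6 a negative difference (14.0% and 14.2% of all genes), with a median of 0.13. The positive count was above the share of all genes and the negative count near it. The fibrillar collagen genes Col1a1 and Col3a1 were positive: Col1a1 averaged 30153 and 25659 CPM in STIA cells with and without OPN and 26318 and 36078 CPM in naive cells with and without OPN, a difference of 0.69 ± 0.10 (adjusted p = 4.31e-05), and Col3a1 had 1.33 ± 0.22. Col15a1, a basement-membrane-zone collagen, was opposed (0.75 ± 0.09 and -0.64 ± 0.10), and fibulin 1, Fbln1, had 1.37 ± 0.12. The negative members included Col8a1 (-1.07), thrombospondin 1, Thbs1 (-0.98), and tenascin X, Tnxb (-0.74, lost in 9 of 19 alternatives). Among 25 genes of matrix breakdown 8 were positive and 7 negative. Stromelysin 1, Mmp3, had a difference of 1.86 ± 0.18 and Plau, the urokinase activator, 1.58 ± 0.09; Plau had 171, 168 and 156 CPM in STIA cells with OPN and 155, 177 and 163 without, and 57.9, 56.3 and 52.3 CPM in naive cells with OPN and 155, 173 and 172 without. The inhibitors Timp2 and Timp3 were negative (-0.69 and -0.60), but Timp1 was positive (0.27). Timp3 rose with OPN in STIA cells as well (0.41, kept in 16 of 20 alternatives). The aggrecanases Adamts4 and Adamts5 were positive (0.77 and 0.51). The proteases Mmp10, Ctsk and Ctsl (-2.92, -0.68 and -0.64) and the urokinase receptor Plaur (-0.82) were negative.

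Bone-related genes separated by source too. The osteoclast factor RANKL, Tnfsf11, had 12.6, 17.6 and 13.2 CPM in STIA cells with OPN and 8.98, 10.3 and 11 without, and 6.61, 4.33 and 7.4 CPM in naive cells with OPN and 19.1, 17.5 and 24.3 without. Its decoy receptor osteoprotegerin, Tnfrsf11b, had 24.2, 22.8 and 23.6 CPM in STIA cells with OPN and 27.7, 22.5 and 22.9 without, and 110, 105 and 112 CPM in naive cells with OPN and 49.3, 41 and 45.9 without. In naive cells RANKL fell and osteoprotegerin rose, and neither change was called in STIA cells; the differences were 2.27 ± 0.27 (adjusted p = 5.54e-05) and -1.32 ± 0.11 (adjusted p = 1.35e-08). Of 24 osteogenic and chondrogenic genes 8 were negative and 1 positive (14.2% and 14.0% of all genes), with a median of -0.44. In naive cells 11 rose (18.8% of all genes). The negative count was 5 without STIA_OPN replicate 1. The positive call, Sox9 (0.31), was lost in 9 of 20 alternatives, among them most fits with 1 library left out. The positive count was 2 without naive_OPN replicate 3. The BMP-family ligand Gdf10 had 8.11, 7.38 and 11.3 CPM in naive cells with OPN against 1.69, 1.62 and 1.63 without, and 0.454 to 0.726 CPM over both STIA groups, which overlapped. The effects were 0.08 ± 0.31 in STIA cells and 2.43 ± 0.19 in naive cells. Col10a1 and Msx2 had -1.30 ± 0.18 and -1.02 ± 0.19. The FGF ligands and receptors gave 8 negative and 2 positive differences of 13: Fgfr2 averaged 33 and 32.8 CPM in STIA cells with and without OPN and 146 and 64.6 CPM in naive cells with and without OPN (-1.16 ± 0.15), Fgf2 had -1.41 ± 0.31, and Fgf5 was opposed the other way (0.73 and -0.76).

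Metabolic and stress lists followed in part. Of 20 genes of the integrated stress response and amino acid supply, 14 were positive and 1 negative (14.0% and 14.2% of all genes), with a median of 0.49. The 14 were 11 with all 18 libraries in the fit. Trib3, a pseudokinase target of ATF4, had 98.7, 104 and 96.4 CPM in STIA cells with OPN and 66.3, 65 and 78.9 without, and 85.4, 80.6 and 97.9 CPM in naive cells with OPN and 119, 123 and 132 without, and was opposed (0.51 ± 0.08 and -0.50 ± 0.08). The amino acid transporter Slc7a3 had 1.03 ± 0.13 and the cysteine-making enzyme Cth 0.76 ± 0.10, while Ddit3 was the negative member at -0.35 (2 negative without naive replicate 2). Cholesterol synthesis went the other way, with 11 negative and 4 positive of 25 and a median of -0.21, and the 11 were 7 with all 18 libraries in the fit. Idi1, Msmo1 and Sc5d, 3 enzymes of the pathway, had -0.97, -0.88 and -0.78, each with a called rise in naive cells. Of 18 clock genes 10 were positive, led by Nfil3 (1.58 ± 0.09), and Per1 had 0.87 ± 0.12. The 10 were 7 with all 18 libraries in the fit, 8 with library totals alone and as few as 7 with a library left out. Of 15 p53 and senescence genes 7 were negative and 2 positive, with Mdm2 at -0.80, Gdf15 at -1.02 and Perp at -2.13.

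The remaining lists were near the background (14.0% positive and 14.2% negative of all genes) or divided. Cell cycle genes gave 2 positive and 4 negative of 34, with a median of -0.01, Rrm2 being the most negative at -1.11, and 1 positive without STIA replicate 2 and 5 without naive replicate 1. Heat shock genes gave 1 and 4 of 16. The positive call, Hsph1 (0.20), was lost in 11 of 20 alternatives, among them most fits with 1 library left out. It was also lost with all 18 libraries in the fit, with no filter on low counts, with library totals alone and with a replicate block. Wnt pathway genes gave 6 and 5 of 30. The 13 mitochondrially encoded genes gave 0 and 0 by edgeR and by DESeq2. They gave 1 and 2 by limma-voom, and 1 and 2 at an unadjusted p below 0.05. By edgeR 2 were positive without naive_OPN replicate 2 and 1 negative without STIA replicate 2. Endothelial markers gave 2 negative differences of 7 tested, osteoclast markers 1 of 4 (Ctsk, -0.68) and keratinocyte markers 0 of 2 by edgeR, DESeq2 and limma-voom (1 at an unadjusted p below 0.05), and no neutrophil, lymphocyte or erythroid marker passed the filter on low counts. Interferon and antigen presentation genes gave 7 and 2 of 27, but 2 and 1 with all 18 libraries in the fit and 4 positive without STIA_OPN replicate 2 and 1 negative without STIA replicate 1, with B2m at -0.73 ± 0.08. Lining fibroblast genes gave 4 and 3 of 11, but 2 positive without STIA replicate 1, with all 18 libraries in the fit and with a filter of 5 CPM. Prg4, which encodes lubricin, had 1637, 1488 and 1624 CPM in STIA cells with OPN and 1243, 1064 and 1091 without, and 1854, 1648 and 1647 CPM in naive cells with OPN and 2394, 2367 and 2118 without, and was opposed (0.48 ± 0.07 and -0.42 ± 0.07). Sublining genes gave 6 and 4 of 21, with Chrdl1 at -1.13. The general fibroblast genes gave 3 and 2 of 13, with Pdgfra at 1.11 ± 0.09 and S100a4 at -1.36 ± 0.25. The other negative call, Pdpn (-0.21), was lost in 11 of 20 alternatives.

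**Figure D5:**
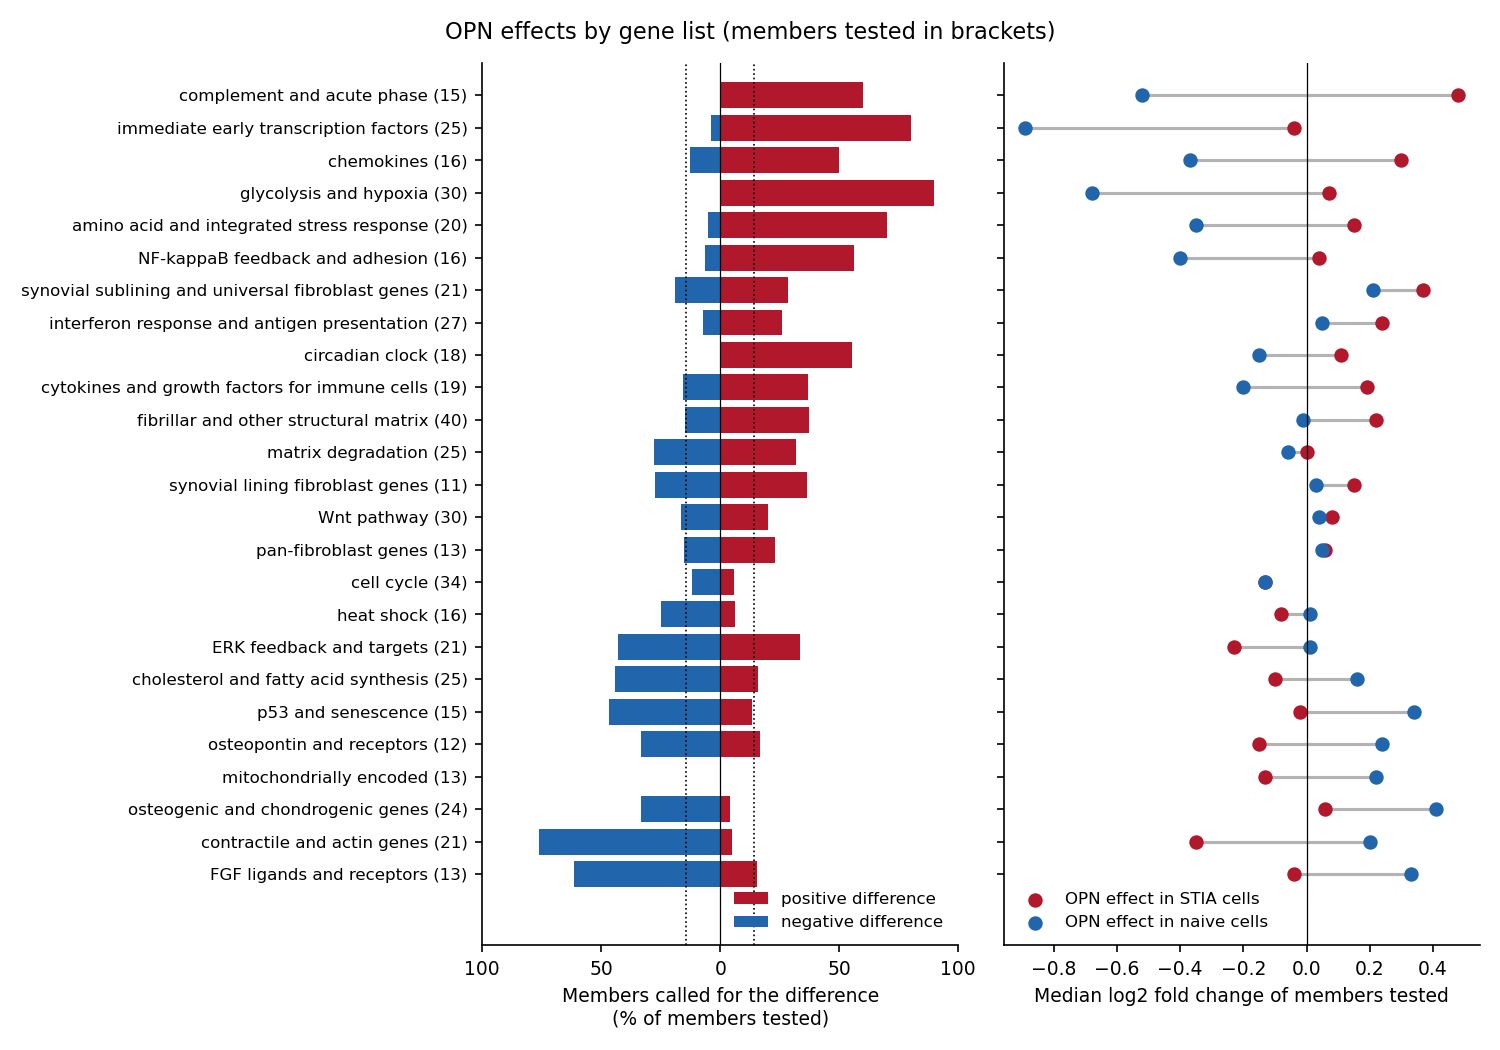
Left, the percentage of tested members of each gene list called for a positive (red, to the right) or negative (blue, to the left) difference, with dotted lines at the 14.0% and 14.2% of all genes; right, the median OPN effect of each list in STIA cells (red) and naive cells (blue). Immediate early, glycolysis, stress response and acute-phase genes lie to the right of the background on the left panel, contractile genes and FGF ligands and receptors to its left.

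Genes whose OPN effect was called in STIA cells alone were few. Reln, the secreted glycoprotein reelin, and the chemokine Cxcl14 rose in STIA cells by 0.80 ± 0.15 and 0.85 ± 0.20, the call for Cxcl14 kept in 7 of 20 alternatives, and Myh11, smooth-muscle myosin, fell by 0.88 ± 0.16. The 2 genes with the same sign and the larger effect in STIA cells were Actg2 and thrombospondin 4, Thbs4, a matrix protein of tendon and muscle. Thbs4 averaged 1300 and 636 CPM in STIA cells with and without OPN and 2309 and 1910 CPM in naive cells with and without OPN, with no overlap in either pair, a difference of 0.76 ± 0.10 (adjusted p = 1.59e-05). The 13 with the smaller effect in STIA cells included Dusp1 and the secreted protein genes Nell2 (0.66 in STIA and 2.30 in naive cells) and Ndnf (0.48 and 1.51), whose STIA calls were kept in 15 and 13 of 20 alternatives. Among the 420 genes called in neither source the largest differences (mean of 5 CPM or more in a group) were those of Sned1 (1.59 ± 0.35), the fibrillin Fbn2 (1.56 ± 0.38), Ggt5 (1.42 ± 0.38) and Tmem267 (-1.42 ± 0.34).

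Read the other way round the design, the same 4093 genes are those whose gap between STIA and naive cells differed with and without OPN. The gap was called for 6603 genes (45.4%) with OPN and 6153 (42.3%) without. Of the 4093, 1414 (34.5%) had a gap called with OPN only, 1239 (30.3%) without OPN only, and 674 (16.5%) in both with the sign turned. Egr1 stood for the first kind, with a gap of 2.22 with OPN and -0.11 without, and Ccn2 for the second, at -0.05 with OPN and 1.81 without. C3 and Cxcl1 turned sign, at 1.30 and 2.25 with OPN and -2.64 and -0.86 without, as did Fos, at 3.40 with OPN and -0.19 without. By list, the contractile genes had a median gap of 0.62 with OPN and 1.23 without, glycolysis and hypoxia genes 0.64 and -0.08, complement and acute-phase genes -0.29 and -1.26, and osteogenic and chondrogenic genes -1.21 and -0.78.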

How the data were processed

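Per the submitters' processing notes, reads were handled with STAR and featureCounts on mouse GRCm38 (mm10), with versions, annotation and strand setting not given in the sources used here. Overlapping and antisense genes are therefore uncertain. The authors deposited whole-number counts per gene for 32285 identifiers (32158 with a symbol); their gene length column is in another unit and was not used.

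The difference was tested with edgeR 4.0.16 (R 4.3.3) on the 12 libraries: genes kept by filterByExpr (14530), TMM scaling, robust quasi-likelihood F test, two-sided, Benjamini-Hochberg adjustment over all genes tested. Standard errors were taken as the fitted log2 value over the root of its F statistic, and CPM use TMM-scaled library sizes, except the marker sums and ranges, which use plain totals. The 2 OPN effects, the 2 STIA minus naive gaps and the difference come from 1 fit. A gene is opposed where both OPN effects were called with opposite signs. Limits for a count of 0 use 3 counts and cover counting error only.

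Genes named are the 12 largest positive and negative differences at a mean of 5 CPM or more in a group, the 4 largest of each class, up to 3 per list, and 12 fixed genes; other list members were named after their values were seen, and some genes that the rule selects are not reported here. The members and the 34 lists were chosen with earlier results of these data known. The 20 alternatives use all 18 libraries, other scaling, DESeq2 1.42.0, limma-voom (limma 3.58.1), 2 other filters, a replicate block and each library left out. Replicates of 1 group differed by more than sampling noise (chi-square per degree of freedom 5.66 to 22.8). Same-numbered libraries of different groups had correlations of -0.244 to 0.217, with 2 of 18 pairs above 0.1, so the numbers were taken not to pair libraries. Replicate 3 had the lowest mitochondrial share of counts in STIA (0.3834%), STIA_OPN (0.4677%) and naive (0.3736%). In naive_OPN replicate 1 was lowest (0.6008%, against 0.6278% in replicate 3). Whether same-numbered libraries share an origin was not tested.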

Additional observations from a re-analysis of the deposited data

Results flagged for a closer look

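The test of the difference between the OPN effects of STIA and naive cells picks out 4093 genes, and the largest of them at a mean of 5 CPM or more in a group are listed here with their log2 difference (STIA minus naive; edgeR quasi-likelihood test). The positive ones were Chl1 at 4.13, C3 at 3.94, Fos at 3.59, Hp at 3.29, Nr4a1 at 3.26, Fosb at 3.24, Shisal1 at 3.22, Gzmb at 3.15, Steap4 at 3.15, Cxcl1 at 3.11, Scara5 at 3.07 and Cxcl5 at 2.94. Of these 12, Chl1, C3, Steap4 and Cxcl1 had effects of opposite sign called in both sources, and the other 8 had a call in naive cells alone. Over 20 alternatives the STIA call was kept in 16 for Chl1 and Steap4, 9 for C3 and 19 for Cxcl1, and the naive call of Scara5 in 9.

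The negative ones were Adcyap1r1 at -3.38, Cck at -3.33, Bc1 at -3.16, Serpinb2 at -3.01, Serpinb9b at -2.95, Car8 at -2.94, Cilp2 at -2.56, Itga8 at -2.41, Penk at -2.37, Tagln at -2.37, Gdf10 at -2.34 and Jam2 at -2.31. Cck, Serpinb2, Serpinb9b, Car8, Itga8 and Jam2 were opposed. Their STIA calls were kept in 15 of 20 alternatives for Cck, 14 of 19 for Serpinb2, 19 of 20 for Serpinb9b, 12 of 20 for Car8, 19 of 20 for Itga8 and 9 of 20 for Jam2. When each library was left out in turn, the difference of these 24 genes kept its sign. It moved least for Fos (3.52 to 3.67) and Nr4a1 (3.18 to 3.33) and most for Adcyap1r1 (-3.67 to -2.52).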

How the results depend on the processing

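The number of genes with a called difference (4093) was 3364 with all 18 libraries in the fit, 4141 by DESeq2, 4120 by limma-voom, 4282 with no filter on low counts and 3431 to 4269 when each library was left out, with 3294 of the calls shared with the fit of 18 libraries, 4028 with DESeq2 and 2819 kept in all 12 leave-one-out fits. The count of OPN effects in STIA cells (789) was 327 with all 18 libraries, 1199 with no filter and 255 to 1088 with each library left out, and the number of opposed genes (385) was 160 with all 18 libraries and 136 to 563 with each library left out; 93 opposed genes were kept in all 12 leave-one-out fits. The cause was not tested. OPN effects in naive cells numbered 4623 to 5504 with each library left out, and the STIA minus naive gaps 5805 to 6792 with OPN and 5159 to 6270 without. With a replicate block the counts were 3976 for the difference, 782 for OPN in STIA cells, 5343 for OPN in naive cells and 379 for opposed genes. Calls in the gene lists (292) numbered 266 to 309 with each library left out and 242 with all 18 libraries. Of the 112 genes that the naming rule selects 109 were called; 7 of them lost the call in at least 1 alternative (Penk, Myh11, Actg2, Ggt5, Hpgd, Ifit3 and Npas2) and none changed sign in any of the 20 alternatives. Of the other list members named, Cxcl16, Hsph1 and Pdpn lost it in 11, Tnxb and Sox9 in 9, Itga9 in 8, Ccl7 in 7, Cd68 in 6 and Ncam1 in 3. Acta2, Ccl2, Ccl8, Cnn1, Mmp10, Thbs1 and Timp1 lost it only with all 18 libraries in the fit. With a filter of 5 CPM, which leaves fewer genes to test, the negative counts were 5 for FGF genes, 5 for osteogenic genes, 3 for Wnt genes and 0 for chemokines, and the positive count of interferon genes was 2. Genes below 5 CPM, such as Lcn2, rest on few counts.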

Other observations

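Of the 93 genes that were opposed in every leave-one-out fit, some belong to no group described above; they were chosen after their values were seen, and the values are log2 OPN effects from the edgeR fit. Vdr, the vitamin D receptor, had 0.41 in STIA cells and -1.77 in naive cells, the largest difference among the genes of this paragraph (2.18). Il4ra, the interleukin 4 receptor chain, had 0.24 and -1.28, the proteoglycan Vcan 0.46 and -1.15, Medag, a gene of adipocyte differentiation, 0.59 and -1.08, and the extracellular superoxide dismutase Sod3 0.76 and -0.47. Ngfr and Erbb3, receptors also found on Schwann cells, had 0.63 and -0.75, and 0.73 and -0.77, while Sox10 was called in naive cells alone (-1.06).

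The reverse direction was seen for the adipogenic receptor Pparg, at -0.56 in STIA cells and 0.83 in naive cells, and for Tnfrsf12a, the TWEAK receptor, at -0.45 and 0.91. Mgll, the monoacylglycerol lipase, had -0.53 and 1.04, Fgd3, a guanine nucleotide exchange factor, -0.72 and 1.02, and Hmox1, haem oxygenase 1, -0.32 and 0.45.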
